A study of Mus musculus with 20 samples.

Results

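5-Formylcytosine (5fC) peaks of wild-type (WT) hindbrain were compared with those of WT carcass, over 6 of the 20 libraries of the series: 4 hindbrain libraries, each from a different litter (A, O, Q or Z, the order used throughout), and 2 carcass libraries, from embryos i6 and i9 of other litters. All 6 libraries came from mid-gestation mouse embryos that carry functional Tdg alleles and were WT offspring of heterozygous crosses. The carcass is what was left of the embryo as dissected for the study, a mixture of tissues whose content the labels do not define. Each library was one pull-down of 5fC-bearing DNA with a biotin probe that reacts with aldehydes, and its peaks were deposited as positions without heights or counts. Tdg null libraries (an allele in which the coding sequence of the catalytic domain is replaced by a neomycin cassette) of hindbrain and carcass, and WT heart and liver libraries of embryos i6 and i9, were read only to see where the WT regions reappear.

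5fC arises when TET dioxygenases oxidise methylated cytosine, mostly at CpG dinucleotides. Thymine DNA glycosylase (TDG) cuts 5fC out and base excision repair restores an unmodified cytosine, so 5fC seen in the presence of TDG is what remains of a mark under turnover. In mouse embryonic stem cells 5fC has been linked to distal regulatory elements.

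The libraries differed in extent before any comparison of tissues. On the 19 autosomes the hindbrain libraries covered 0.904 (A), 4.47 (O), 11.6 (Q) and 0.856 Mb (Z), and the carcass libraries 23.7 and 20.2 Mb, so every hindbrain library covered less than either carcass library. Tissue, litter and covered length therefore cannot be told apart. Litters A and Z stood apart with 1515 and 1507 peaks and with the strongest cover of CpG islands. Peaks over 5000 bp lay in all 4 hindbrain libraries and in neither carcass library, and made up 7.87% and 8.32% of the peak bases of litters A and Z. The read depth behind the peaks is unknown. No marker of hindbrain or carcass identity can be checked in peak positions.

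Regions called in 2 or more hindbrain libraries, or in both carcass libraries, were sorted by whether the other tissue had a peak there. Hindbrain gave 6209 regions, of which 2693 (43.4%, exact 95% interval 42.1 to 44.6%) met no carcass peak and 2384 were shared with a carcass region. Carcass gave 21262 regions, of which 15073 (70.9%, interval 70.3 to 71.5%) met no peak of any hindbrain library. The remaining 1132 hindbrain and 3804 carcass regions met peaks of the other tissue short of a region. All intervals cover counting error only. Only 221 hindbrain-only regions lay under peaks of all 4 hindbrain libraries, 311 under 3 and 2161 under 2. Leaving out litter O or Q took the hindbrain-only regions to 730 and 601. Without litters A and Z there were 2441 hindbrain-only, 15203 carcass-only and 2160 shared regions.

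The sequences below show what the kinds of region look like, since the comparison turns on their make-up. Each is the central 200 bases of a region, plus strand, read from NCBIM37 (mm9), with every CpG in capitals. The first pair are hindbrain-only regions under peaks of all 4 hindbrain libraries, in an intergenic stretch and in an intron of Smo.

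Intergenic, hindbrain-only, chr13:74667100-74667299: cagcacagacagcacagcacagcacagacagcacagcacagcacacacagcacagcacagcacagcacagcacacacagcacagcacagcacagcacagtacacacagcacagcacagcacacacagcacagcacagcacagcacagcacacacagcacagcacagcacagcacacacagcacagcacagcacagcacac

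Smo intron, hindbrain-only, chr6:29698300-29698499: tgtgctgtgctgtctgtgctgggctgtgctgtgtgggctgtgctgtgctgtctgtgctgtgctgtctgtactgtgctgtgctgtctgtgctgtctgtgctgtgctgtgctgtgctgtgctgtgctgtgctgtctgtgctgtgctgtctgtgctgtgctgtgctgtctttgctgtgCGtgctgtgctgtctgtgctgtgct

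Both are runs of a short repeated unit, with 92.1% and 71.4% of their 12-base words occurring more than once in the window, and they hold 0 and 1 CpG. The next pair are hindbrain-only regions in introns of Agap1 and Rab6b, under peaks of 2 hindbrain libraries, with no repeated 12-base word and 6 and 7 CpGs.

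Agap1 intron, hindbrain-only, chr1:91610850-91611049: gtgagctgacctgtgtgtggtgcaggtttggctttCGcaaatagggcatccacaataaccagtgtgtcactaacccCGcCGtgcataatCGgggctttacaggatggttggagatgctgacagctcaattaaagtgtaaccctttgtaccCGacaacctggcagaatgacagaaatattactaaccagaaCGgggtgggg

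Rab6b intron, hindbrain-only, chr9:103049650-103049849: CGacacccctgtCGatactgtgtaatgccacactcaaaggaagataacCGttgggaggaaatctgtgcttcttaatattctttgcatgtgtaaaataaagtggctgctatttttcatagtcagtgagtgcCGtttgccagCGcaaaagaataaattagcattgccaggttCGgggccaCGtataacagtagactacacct

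The carcass-only regions in introns of Glis1, Runx2 and Prox1 held 9, 6 and 11 CpGs and no repeated 12-base word.

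Glis1 intron, carcass-only, chr4:107175050-107175249: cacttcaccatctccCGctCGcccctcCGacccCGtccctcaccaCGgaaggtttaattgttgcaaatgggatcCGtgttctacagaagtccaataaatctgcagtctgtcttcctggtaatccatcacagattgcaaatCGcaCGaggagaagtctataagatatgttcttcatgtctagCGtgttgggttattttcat

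Runx2 intron, carcass-only, chr17:44729250-44729449: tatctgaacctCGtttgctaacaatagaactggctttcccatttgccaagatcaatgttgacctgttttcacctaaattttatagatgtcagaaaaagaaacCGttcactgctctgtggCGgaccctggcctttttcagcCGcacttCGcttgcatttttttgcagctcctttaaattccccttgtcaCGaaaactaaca

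Prox1 intron, carcass-only, chr1:191972950-191973149: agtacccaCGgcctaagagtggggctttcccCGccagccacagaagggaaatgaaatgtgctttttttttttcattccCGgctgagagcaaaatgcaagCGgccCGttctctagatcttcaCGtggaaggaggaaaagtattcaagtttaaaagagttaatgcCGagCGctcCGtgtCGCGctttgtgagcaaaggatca

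A region of an Uxs1 intron shared by all 6 libraries was made of a longer repeated unit with 10 CpGs, and 93.7% of its 12-base words were repeated.

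Uxs1 intron, shared, chr1:43835100-43835299: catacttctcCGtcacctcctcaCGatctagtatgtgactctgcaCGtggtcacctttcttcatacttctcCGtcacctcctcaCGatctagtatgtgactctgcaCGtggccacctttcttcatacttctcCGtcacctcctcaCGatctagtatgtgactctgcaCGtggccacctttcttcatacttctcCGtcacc

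The same measures over all regions followed the number of hindbrain libraries. At least 50% of the 12-base words were repeated in 103 of 220 hindbrain-only regions of all 4 libraries (46.8%, interval 40.1 to 53.6%), in 17.7% of those of 3 libraries and in 4.81% of those of 2. The share was 0.186% (interval 0.123 to 0.268%) in carcass-only regions and 0.661% in 119701 windows laid every 20 kb along the autosomes. CpG-free centres made up 40.5%, 15.1% and 4.44% of the hindbrain-only regions of 4, 3 and 2 libraries, 1.20% of carcass-only regions and 35940 of the windows (interval 29.8 to 30.3%). Regions shared by all 6 libraries lay between, with 12.4% repeated and 9.47% CpG-free. The hindbrain-only regions seen in all 4 litters were thus CpG-free more often than the windows, while those of 2 litters and of the carcass carried a median of 5 CpGs in 200 bases, against 1 in the windows.

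**Figure D1:**
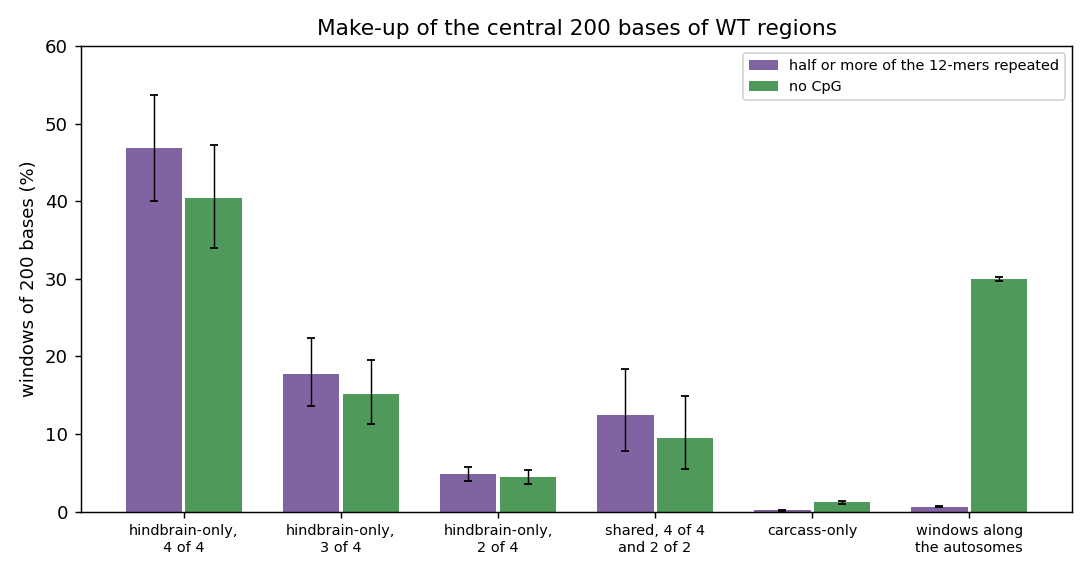
Percent of regions (y axis) whose central 200 bases have at least 50% of their 12-base words repeated (purple) or hold no CpG (green), for each kind of region and for windows every 20 kb (x axis), with exact 95% intervals as error bars. Repeated centres fall from 46.8% in hindbrain-only regions of 4 libraries to 4.81% in those of 2 and 0.186% in carcass-only regions.

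The peaks of single libraries showed the same difference. Repeated centres made up 12.8%, 4.27%, 2.65% and 12.9% of the peaks of the hindbrain litters, against 0.333% and 0.364% in the carcass libraries. In number these were 194, 380, 559 and 195 peaks in hindbrain and 138 and 126 in carcass, so the hindbrain libraries with the fewest peaks held more of them than either carcass library. In WT heart of embryos i6 and i9 the share was 3.71% and 2.34%, and in WT liver of the same embryos 1.29% and 6.55%. In Tdg null hindbrain, with far more peaks, it was 0.206 to 0.245%, or 212 to 314 peaks, below the share of WT carcass.

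Whether the regions reappeared in other tissues also depended on how many hindbrain libraries held them. The Tdg null hindbrain libraries came from the same litters as the WT hindbrain libraries, and the Tdg null carcass libraries from those of the WT carcass, so that reappearance by litter and by tissue cannot be told apart. Of the 221 hindbrain-only regions of 4 libraries, 157 (interval 64.6 to 76.9%) lay under a peak of WT heart, 203 (91.9%) under a peak of Tdg null hindbrain and 24 (10.9%, interval 7.08 to 15.7%) under a peak of Tdg null carcass. Of the 2161 regions of 2 libraries, 75 (3.47%) lay under a peak of WT heart, 2003 (92.7%) of Tdg null hindbrain and 1805 (83.5%) of Tdg null carcass. Carcass-only regions lay under a peak of Tdg null carcass in 79.1% and of Tdg null hindbrain in 68.1%. Thus most regions seen in WT hindbrain of every litter and in no WT carcass were also found in WT heart and were rare in Tdg null carcass, while most of those of 2 litters were found in both Tdg null tissues.

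**Figure D2:**
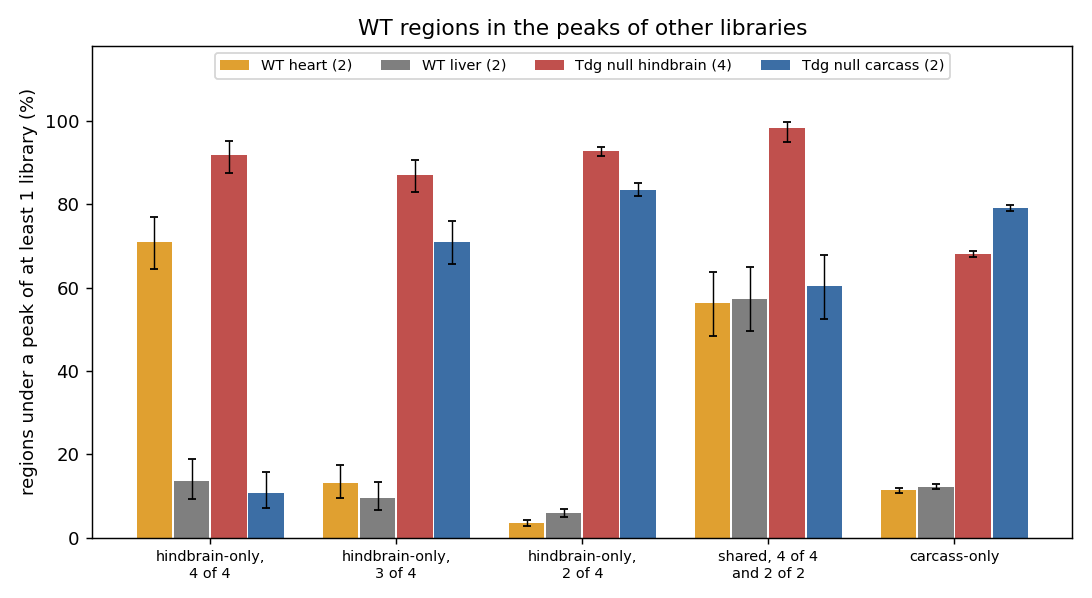
Percent of WT regions of each kind (x axis) that lie under a peak of at least 1 library of WT heart, WT liver, Tdg null hindbrain or Tdg null carcass (y axis, number of libraries in brackets), with exact 95% intervals as error bars. For hindbrain-only regions of 4 libraries 157 of 221 lie under a WT heart peak and 10.9% under a Tdg null carcass peak, and for those of 2 libraries the shares are 3.47% and 83.5%.

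Set against the share of the genome that each library covers, the hindbrain-only bases were enriched under Tdg null hindbrain peaks by 4.38 ± 0.21 (SD, n = 4, log2) and under Tdg null carcass peaks by 3.16 ± 0.31 (n = 2). All 4 hindbrain values were above both carcass values, a difference of 1.22 (two-sided exact permutation p = 0.133, the smallest that 4 against 2 libraries allow). Carcass-only bases were also more enriched under Tdg null hindbrain than Tdg null carcass peaks, at 3.80 ± 0.11 and 3.40 ± 0.09, a difference of 0.40 with the same p. Shared bases gave 4.68 ± 0.21 and 3.68 ± 0.26. The value is limited by the share of the genome a library covers, and the Tdg null carcass libraries covered more (137 and 192 Mb) than the Tdg null hindbrain libraries (68.0 to 93.2 Mb). As a plain share of their bases, hindbrain-only regions lay under Tdg null hindbrain peaks for 66.6 to 80.9% and under Tdg null carcass peaks for 59.7 and 61.6%. Carcass-only regions went the other way, with 42.5 to 54.8% in hindbrain and 63.0 and 80.7% in carcass, and shared regions overlapped, with 84.97 to 95.2% and 83.4 and 90.5%. The difference for hindbrain-only regions ranged from 1.002 to 2.188 with 1 library left out, and was 2.01 without WT litter O and 2.19 without WT litter Q.

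Overlap of peaks within and between the tissues depended on how it was counted. The bases shared by a pair of libraries exceeded those expected from their covered lengths by 7.12 to 10.19 (log2) in the 6 hindbrain pairs, by 5.94 in the carcass pair and by 5.01 to 5.61 in the 8 pairs of hindbrain with carcass. The mean within tissues exceeded that between by 2.52, the largest of the 15 assignments of the libraries (one-sided exact permutation p = 0.0667, the smallest possible). The pair of litters A and Z had the highest value, and without these litters the excess was 1.25. This measure too is limited by covered length, and least so for pairs of small libraries. By plain counts litter Q went the other way, with 28.9% of its peaks touching a peak of another hindbrain library and 42.6% touching a carcass peak. Such counts follow the extent of the other libraries, which was 76121 peaks in carcass and 1515, 8902 and 1507 in litters A, O and Z. Over expected bases litter Q had 7.12 to 7.30 with the other hindbrain libraries and 5.10 and 5.23 with carcass. The Jaccard index (shared over joint bases) of litter Q was 0.126 and 0.130 with carcass, 0.230 with litter O and 0.0585 and 0.0516 with litters A and Z. In litters A, O and Z, 81.6%, 64.8% and 73.1% of peaks touched hindbrain peaks and 45.7%, 48.7% and 54.5% carcass peaks.

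**Figure D3:**
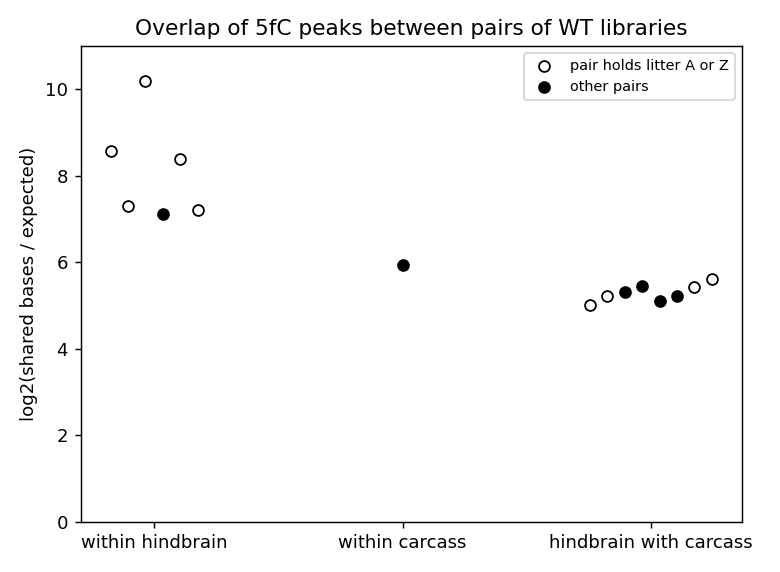
Overlap of 5fC peaks for each pair of WT libraries (points), as log2 of shared over expected bases (y axis), for pairs within hindbrain, within carcass and between the tissues (x axis). Hindbrain pairs lie at 7.12 to 10.19 and pairs between the tissues at 5.01 to 5.61, and open points are pairs that hold litter A or Z.

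Of the places peaks can lie, exons, promoters and CpG islands were more enriched in every hindbrain library than in either carcass library. Log2 enrichment in exons was 0.74, 0.67, 0.59 and 0.82 in hindbrain and 0.42 in both carcass libraries. In promoters it was 0.60, 0.20, 0.08 and 0.60 against -0.08 and -0.10. In CpG islands it was 2.04, 0.18, 0.08 and 2.53 against -0.33 and -0.32, so that litters A and Z set most of the mean difference of 1.53. None of these passed (two-sided exact permutation p = 0.133 each, adjusted over 6 features p = 0.267). Gene bodies and introns overlapped between the tissues. GC content was 48.0 to 48.8% of hindbrain and 46.8 to 46.9% of carcass peak bases, against 41.9% of the autosomes.

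Per gene, the bases under peaks in the gene body were divided by the Mb each library covers, and log2(value + 100) was compared by limma over the 5500 autosomal protein-coding genes with a peak base in at least 2 of the 6 libraries. At an adjusted p under 0.05, 10 genes were called higher in hindbrain (0.182% of the genes tested) and 1592 higher in carcass (28.9%). The carcass number is mostly made of genes with very few peaks. In 1430 of them no hindbrain library had a peak base, and 1401 would have had fewer than 3 peaks of the median length of 500 bp in the 17.8 Mb of all hindbrain peaks at the carcass level. Identical zeros leave almost no spread for the test, and in simulated data without differences the fit also called such genes higher in carcass. Among the 1184 genes with a mean of at least 100 bases per Mb limma called 0 for carcass (30 at an unadjusted p under 0.05) and 3 for hindbrain. The 1592 calls are given as the output of that fit and not as a number of genes that differ. The Benjamini-Hochberg adjustment covered both directions together, so these calls also lowered the adjusted p of genes ranked behind them. The adjusted p values of the 10 hindbrain calls depend on this, as for Prex1, at a limma p of 0.0112 unadjusted and 0.0395 adjusted. At an unadjusted p under 0.05, limma put 48 genes higher in hindbrain. It called 3 hindbrain genes with peak bases in at least 3 libraries and 3 with a mean of at least 100 bases per Mb. Without litters A and Z and with the same minimum, a setting chosen after seeing the data, 40 of 1280 genes were called higher in hindbrain (3.12%) and 27 higher in carcass (2.11%). Some of these passed the minimum through 1 tissue alone, and their identical zeros in the other add no spread. Examples are Smad7 and Drg1, at 0 in both carcass libraries, and Ano2 and Sgk1, at 0 in litters O and Q. The 40 and 27 are thus also given only as the output of that fit. A fit over 1296 genes without peaks of repeated or CpG-free centre called 22 and 14, of which 22 and 13 were among the 40 and 27.

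Scaling to covered length raises a gene that keeps the same peak in a library with few peaks, so peak bases are given beside the scaled values of the genes called higher in hindbrain with carcass peaks. Agap1 (chr1:91351381-91791857), a GTPase-activating protein for Arf proteins that acts in endosomal traffic, had 1328, 1701, 1209 and 1402 bases per Mb in hindbrain and 658 and 623 in carcass (log2 difference 1.02 ± 0.21 SE, limma adjusted p = 0.0129). In peak bases this was 1200, 7600, 14000 and 1200 in hindbrain and 15600 and 12600 in carcass. All 4 hindbrain libraries were above both carcass libraries after scaling and not in peak bases. The Tdg null groups overlapped, at 566 to 831 bases per Mb in hindbrain and 814 to 923 in carcass. In WT heart Agap1 had 0 and 415 bases per Mb and in WT liver 229 and 0.

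Rab6b (chr9:103014404-103087600), a Rab GTPase of Golgi traffic found mostly in neurons, had 664, 313, 251 and 584 bases per Mb in hindbrain and 0 and 14.8 in carcass, or 600, 1400, 2900 and 500 peak bases against 0 and 300 (log2 difference 2.29 ± 0.51, adjusted p = 0.0193). In Tdg null tissue it had 76.5 to 99.8 bases per Mb in hindbrain and 47.4 to 70.9 in carcass, without overlap. Tdg null hindbrain was above carcass in this way in 23.5% of all genes tested. Prex1, an exchange factor for Rac, had 664, 492, 389 and 584 against 110 and 119, or 600, 2200, 4500 and 500 peak bases against 2600 and 2400 (log2 difference 1.54 ± 0.41, adjusted p = 0.0395). Vti1a, a SNARE protein, had 1439, 1097, 959 and 1169 against 434 and 519, or 1300, 4900, 11100 and 1000 peak bases against 10300 and 10497 (log2 difference 1.12 ± 0.26, adjusted p = 0.0227). These genes and C130026I21Rik, an uncharacterised gene with 907 to 3209 bases per Mb in hindbrain and 126 and 59.3 in carcass (2900, 5900, 10500 and 1300 peak bases against 3000 and 1200), kept their call when peaks with repeated or CpG-free centres were left out. WT heart was above all 4 hindbrain values in 1 library each for Vti1a (2144 in embryo i9) and C130026I21Rik (8958 in embryo i6). In Tdg null tissue Prex1 overlapped, at 232 to 290 bases per Mb in hindbrain and 209 to 259 in carcass. Vti1a overlapped as well, at 370 to 487 and 461 to 551, and C130026I21Rik did not, at 14.2 to 61.4 and 0. Of 21 other settings, the call was kept in 9 for Prex1, 14 for Rab6b, 15 for Vti1a, 16 for Agap1 and 19 for C130026I21Rik. Prex1 lost it without litter A, O or Z and without either carcass library, and none of these genes kept it without embryo i9. With 1 carcass library left, the spread comes from hindbrain alone and carcass is assumed to vary like it. With 1 library left out, the log2 differences ranged from 1.45 to 1.66 for Prex1, 2.11 to 2.49 for Rab6b, 1.02 to 1.23 for Vti1a, 0.93 to 1.08 for Agap1 and 2.80 to 3.38 for C130026I21Rik.

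Gm15319, Tcte2, Gpr180 and Dlgap2 were called as well, and held such peaks or very long ones. Gm15319 and Gpr180 (664, 358, 181 and 818 bases per Mb in hindbrain) were at 0 in both carcass libraries. These 2 genes entered the test through hindbrain alone, and their identical zeros in carcass add no spread to it. Gm15319 had 28272.5, 5717, 2052 and 29855 bases per Mb in hindbrain and 0 in both carcass libraries, all within 1 hindbrain-only region of 71100 bp that spans the gene at chr8:19916701-19987800 and that both WT heart libraries also held. Tcte2 had 4205, 1746, 1287 and 5025 against 126 and 54.4 (3800, 7800, 14900 and 4300 peak bases against 3000 and 1100), and its log2 difference of 3.87 became 2.55 without peaks over 5000 bp (adjusted p = 0.396) and 2.09 without repeated or CpG-free ones (adjusted p = 0.390). Gpr180 and Dlgap2, a scaffold protein of the postsynaptic density, (1400, 4100, 9400 and 900 peak bases against 9100 and 7400) had log2 differences of 2.46 and 1.28 (adjusted p = 0.0302 and 0.0370), which became 0.47 and 0.17 (adjusted p = 0.488 and 0.956) without repeated or CpG-free peaks. Cyp2c29 and Kcnh1 followed with adjusted p of 0.0546 and 0.0558, and Cyp2c29 too was at 0 in both carcass libraries.

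Runx2 (chr17:44632936-44951746), which directs osteoblast differentiation, was the largest carcass call. It has 2 annotated gene IDs on overlapping bodies of 319 and 207 kb, which share peaks and count as 1 finding. The longer of them had 0, 0, 104 and 0 bases per Mb in hindbrain and 679 and 475 in carcass (log2 difference -2.49 ± 0.46, adjusted p = 0.00856). It held 13 carcass-only regions and no hindbrain region, while the Tdg null groups overlapped at 225 to 311 bases per Mb in hindbrain and 283 to 284 in carcass. Glis1 (chr4:107107196-107307666), a Kruppel-like zinc finger factor, had 0, 89.5, 181 and 0 against 645 and 534 (log2 difference -2.18 ± 0.58, adjusted p = 0.0386). It was also higher in Tdg null carcass without overlap, as were 17.5% of all genes tested. Adam12, a metalloprotease of muscle and bone precursors, had 0, 0, 155 and 0 against 448 and 357 (log2 difference -1.99 ± 0.52, adjusted p = 0.0359). Ltbp1, which tethers latent TGF-beta in the matrix, had 0, 67.1, 155 and 0 against 422 and 460 (log2 difference -1.91 ± 0.52, adjusted p = 0.0418). In these 4 genes litters A and Z were at 0, and litter Q, with or without O, held all hindbrain peak bases. A single peak of 500 bases gives 553 bases per Mb in litter A and 584 in litter Z, so a 0 there says little about absence. None of these 4 calls was kept with peak bases in at least 3 libraries. The same held with a mean of at least 100 bases per Mb over all 6 libraries, and limma called 0 carcass genes in both settings.

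The other large carcass calls were of mixed role. Sema5a, an axon guidance semaphorin, had 0, 44.8, 155 and 0 against 489 and 465 (log2 difference -2.06 ± 0.51). Kcnma1, the BK potassium channel, had 0, 134, 155 and 0 against 599 and 573 (log2 difference -2.13 ± 0.59). Aff1, of the super elongation complex, had 0, 0, 34.6 and 0 against 375 and 351 (log2 difference -2.10 ± 0.28, adjusted p = 0.00221). Tln2, Arhgap28, Rgl1 and Syn3 had log2 differences of -1.91 to -2.04. Without litters A and Z the differences of these 4, of Sema5a, Kcnma1, Aff1, Runx2, Glis1, Adam12 and Ltbp1 kept their direction. Over all genes tested Tln2 and Adam12 then missed the threshold, at adjusted p of 0.0670 and 0.105. Over the 1280 genes past the minimum mean Tln2 passed (0.0470) and Adam12 did not (0.0674). Of 21 other settings, the call was kept in 18 for the longer Runx2 body and Arhgap28, in 19 for Aff1, in 8 for Kcnma1 and Adam12 and in 9 to 12 for Glis1, Sema5a, Tln2, Rgl1, Ltbp1 and Syn3. For each of these genes the settings that lost it included peak bases in at least 3 libraries and the minimum mean over all 6.

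**Figure D4:**
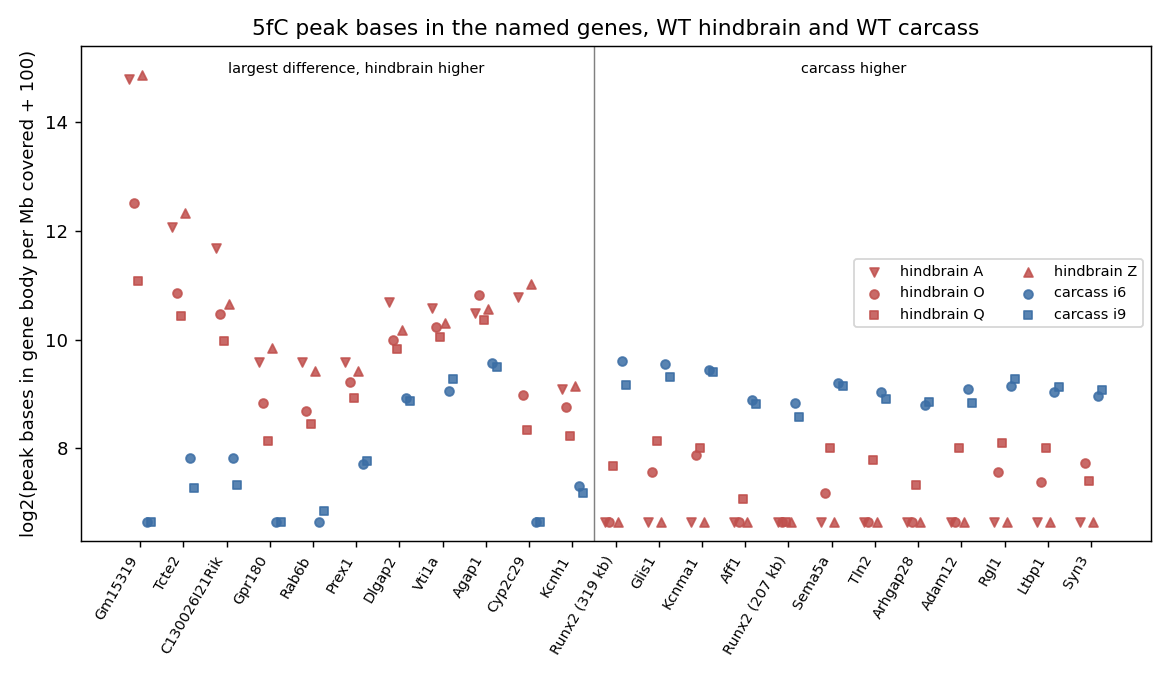
Peak bases in the gene body per Mb covered, as log2(value + 100) (y axis), for the genes named in each direction (x axis), with 1 point per library (red hindbrain, blue carcass). The lowest level plotted is a value of 0, at which litters A and Z lie for all the carcass genes.

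Some genes were under peaks of one tissue only. All 4 hindbrain values were above both carcass values in 2.51% of the genes tested and below them in 37%. In 31 genes all 4 hindbrain libraries and neither carcass library had a peak base, and 26 of these also had one in WT heart. The count was 6 in WT liver, 31 in Tdg null hindbrain and 20 in Tdg null carcass. The shares of all genes with a peak base in these tissues were not measured. Smo, the signal transducer of the hedgehog pathway, carried the same 1800 peak bases in each hindbrain library, on the repeat printed above, and 441 and 588 bases per Mb in WT heart. Muc6, a secreted mucin, carried 1800, 1800, 2000 and 1800. In these genes a constant peak gives scaled values that fall as cover rises, such as 1992, 403, 155 and 2104 bases per Mb for Smo, and Smo did not pass the test over all 4 litters (adjusted p = 0.0838) and passed it without litters A and Z (0.0470), with both carcass libraries at 0. In the other direction 76 genes with peak bases in both carcass libraries and none in hindbrain would have had at least 3 hindbrain peaks at the carcass level. The highest were the shorter Runx2 body, at 358 and 282 bases per Mb, and then Ano2, a chloride channel, at 278 and 247 bases per Mb, Adamts16, a matrix protease, at 240 and 198, and Sgk1, a kinase of salt transport, at 223 and 193. Frmd6 and Bmp7, a bone morphogenetic protein, were also among them, Bmp7 at 3000 and 2900 peak bases. All 76 had peak bases in Tdg null hindbrain and all 76 in Tdg null carcass, and the share of all genes with such a base was not measured. In Tdg null tissue 21 of the 76 were higher in carcass without overlap and 5 in hindbrain. Over all genes tested these shares were 17.5% and 23.5%.

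Among the 40 genes called higher in hindbrain without litters A and Z was Nfasc, a cell adhesion protein of the axon initial segment, with 515 and 363 bases per Mb in litters O and Q and 0 in carcass (log2 difference 2.42, limma adjusted p = 0.00973). It was at 0 in litter A and at 818 in litter Z, with an adjusted p of 0.216 over all 4 litters. At 0 in both carcass libraries, it entered this fit through hindbrain alone, and its identical zeros in carcass add no spread to the test. Csmd2 had 1298 and 1227 against 261 and 326, and was at 553 and 467 in litters A and Z. Sdk2, a synaptic adhesion protein, had 1029 and 760 against 215 and 257 but 0 in litters A and Z, and its log2 difference over all 4 litters was -0.10. Hmga2, a chromatin protein of embryonic cells, and Kit, a receptor tyrosine kinase, were called as well, with 1 of the litters A and Z at 0 in each. In Tdg null tissue 17 of the 40 were higher in hindbrain without overlap and 5 higher in carcass, and of the 27 carcass genes 12 were higher in carcass and 1 in hindbrain. Over the 1280 genes 15.3% were higher in Tdg null hindbrain and 31.2% in Tdg null carcass.

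The gene lists drawn up for the 2 tissues showed few calls. Of 38 hindbrain patterning genes 9 were tested, 1 was higher in hindbrain and none was higher in carcass. Over all genes tested 0.182% were called higher in hindbrain, and a single call is not read as a result about the list. Its median log2 difference was -0.34 against -0.27 over all genes tested. None of the 12 neural progenitor genes tested was called (median -0.21). Without litters A and Z, among the genes past the minimum mean, the median was 0.26 over 6 hindbrain patterning genes, 0.41 over 8 neural progenitor genes, -0.01 over 38 genes of neuron differentiation and axon guidance, 0.78 over 2 neural crest genes, 0.12 over 6 endothelial and blood genes and -0.07 over 7 mesenchyme genes, against 0.06 over all 1280. These sets are smaller, and both the litters and the minimum changed. Of 48 genes of neuron differentiation and axon guidance none was higher in hindbrain and 3 were higher in carcass, Sema5a and Sema3a among them, and the median was -0.35. Slit3, a guidance ligand, had 0, 179, 622 and 0 bases per Mb in hindbrain and 1176 and 1004 in carcass and missed the threshold (adjusted p = 0.126). In muscle and somite genes 5 of 15 tested were called for carcass (median -0.29), 4 of them with no hindbrain peak base. In mesenchyme, limb and skeleton genes 5 of 21 were called for carcass (median -0.43), all 5 with no hindbrain peak base. Genes with no hindbrain base entered the test through the carcass libraries alone, and such calls were also made in simulated data without differences, so they are not read as a difference of these lists. The shares of carcass calls in these lists, from 0 of 9 and 0 of 12 to 5 of 15, stood beside the 28.9% of all genes tested.

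The remaining lists were thinly covered. Of endothelial and blood genes 3 of 14 tested were called for carcass (median -0.31), all 3 with no hindbrain peak base, and none of 6 neural crest genes was called (median -0.01). Of 28 posterior Hox genes, which pattern the trunk, none had enough peaks to be tested, in either tissue. Trunk organ genes gave 1 carcass call of 3 tested, enzymes of cytosine modification 2 of 7 and housekeeping genes 1 of 3, each again with no hindbrain peak base. Among the modification enzymes Tet3 had 553, 112, 121 and 0 bases per Mb in hindbrain and 50.6 and 19.8 in carcass and was not called (adjusted p = 0.569). Tdg itself had no hindbrain peak base and 8.43 and 19.8 bases per Mb in carcass, or 200 and 400 peak bases. Its call for carcass (limma adjusted p = 0.0126) rests on identical zeros, with 0.502 peaks expected in hindbrain at the carcass level.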

How the data were processed

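5fC pull-down libraries were trimmed, aligned with Bowtie2 to NCBIM37 (mm9) and called with MACS in SeqMonk per library by the authors. The deposited files give only peak positions on a 100 bp grid, with no counts, scores or other values per peak, and the handling of input and duplicates is not given in the sources used here. Peaks of 6 WT libraries on 19 autosomes were set against GENCODE gene bodies of the same build, promoters of 1000 bp upstream and CpG islands found from the sequence (at least 200 bp, GC at least 50%, observed over expected CpG above 0.6). Peak bases per gene body were divided by each library's covered Mb, and log2(value + 100) was fitted with limma 3.58.1 in R 4.3.3 (trend, Benjamini-Hochberg). Exact permutation tests used scipy 1.17.1. Tested on simulated data without differences, the fit wrongly called genes at 0 in all hindbrain libraries higher in carcass, which it did not do with a minimum mean. Labels name each embryo, but p-values measure only the spread between these libraries. Named genes are the 12 with the largest difference among those called in each direction, filled by lowest p, 3 of each of 11 lists, and Tdg. Some of these are not reported here. Genes called without litters A and Z, genes seen in one tissue and the gene regions printed were chosen after their values were seen. Members and lists were chosen with earlier results of these data known. Masked repeats could not be measured in an unmasked sequence, so repeated 12-base words were counted instead.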

Additional observations from a re-analysis of the deposited data

Results flagged for a closer look

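In 5 of 36 groups of 4 hindbrain values tested, litter Q lay far from the other 3 litters, all of which were at 0. On the scale of log2(bases per Mb + 100) litter Q was at 7.67 for Runx2 (the body of 319 kb), 7.072 for Aff1, 7.787 for Tln2, 7.326 for Arhgap28 and 7.997 for Adam12. Chance flags about 1 in 20 groups of values that vary, but this rate does not hold here, since with 3 values at 0 any other value is singled out whatever its size. Litter Q covers the most of the hindbrain libraries, and its part in these values was not tested.

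Outside the autosomes the 6 WT libraries held 1646 peaks on chromosome X and 154 on chromosome Y, which entered no comparison.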

How the results depend on the processing

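The number of calls depended on the setting. Genes higher in hindbrain (10) became 27 and 4 with pseudocounts of 20 and 500, 3 with peak bases in at least 3 libraries, 5 without a filter, 152 without litters A and Z, 2 with peaks per 1000 peaks and 18 without the trend. Settings added after seeing the data gave 3 with a mean of at least 100 bases per Mb, 40 when litters A and Z were also left out, and 22 when peaks of repeated or CpG-free centre were left out too. Genes higher in carcass (1592) became 0 with at least 3 libraries (limma, 193 at an unadjusted p under 0.05), 2435 with 10 kb on both sides, and 0, 27 and 14 under the added settings. Leaving out 1 library gave 0 to 33 hindbrain calls and 1415 to 2387 carcass calls: without litter Q 33 and 2387, without embryo i6 3 and without i9 0 for hindbrain (12 at an unadjusted p under 0.05). Without i6 or i9 the 1 carcass library left is assumed to vary like hindbrain. Hindbrain-only regions numbered 535 under at least 3 of 4 libraries, 942 for peaks of at least 600 bp and 601 to 2591 with 1 library left out; carcass-only regions 8149 for such peaks and 15103 to 18165; shared regions 626, 913 and 662 to 2326. Without litters O and Q in turn the shared regions were 800 and 662.

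Some signs turned. Without peaks over 5000 bp the differences were -0.0363 for genes, -0.0725 for introns and 0.0271 for intergenic bases, and introns ranged from -0.0119 to 0.0381 with 1 library left out. CpG per 100 bp differed by -0.088 for peaks of at least 600 bp. Meis2 (1.03 with all libraries) was at -0.28 for such peaks, Gli2 (-0.87) at 0.49 without litters A and Z and 0.59 also without repeated peaks, Nrp1 (-0.70) at 0.0167 in that last setting, Zeb2 (-0.30) at 0.10 per 1000 peaks and Gata4 (-0.19) at 0.0019 without A and Z. Nfib (-0.59) ranged from -0.98 to 0.12 with 1 library left out, Psmb2 from -0.13 to 0.23 and Ywhaz from -0.22 to 0.15. Ywhaz was at 0.11 without A and Z and 0.19 with 10 kb on both sides. The estimate of array weights stopped before its tolerance was reached. The causes were not tested.

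No paired analysis was possible because no litter holds both tissues. The share of masked repeats was not run, since the sequence is not masked, and the cover in Tdg null tissue was not run with 1 WT carcass library left out, since its regions need both.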
